A study of Rattus norvegicus with 12 samples.

Results

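The Z-disc anchors the thin filaments of neighbouring sarcomeres and carries the force of each contraction, and several of its proteins also report stretch to the nucleus. Alpha-actinin crosslinks actin there, PDZ and LIM proteins dock on alpha-actinin, and ankyrin repeat and Xin proteins are known to change in amount when heart muscle is overloaded or injured. Their genes are used as readouts of mechanical stress in cardiomyocytes.

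Of 10 genes listed for Z-disc and mechanical stress proteins, 8 were matched to a probe set whose platform annotation gave exactly 1 gene symbol, out of 14324 genes matched in that way. These were Csrp3, Ankrd1, Ankrd2, Xirp2, Nrap, Myoz2, Ldb3 and Actn2, each with 1 probe set. Xirp1 and Tcap had no such match and were not analysed here. No filter on low values was applied, so all 8 entered the test.

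The 6 DEHP cultures received di(2-ethylhexyl) phthalate, a plasticizer of flexible medical plastics, at 50 µg/mL in 0.1% DMSO for 3 days. The 6 control cultures received 0.1% DMSO alone for the same time, so both groups carried the vehicle. All were monolayers of heart cells from 2-day-old Sprague-Dawley rats of 1 litter, digested enzymatically and grown for 3 days before treatment, with 1 Affymetrix array per culture. The comparison asked which transcripts differ at a DEHP concentration that the title calls clinically relevant. The p-values measure the spread between cultures of 1 litter, not between litters.

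The deposited values divide each probe set by its median over the 12 arrays, and they are given here as log2 ratios. The level of a gene is not held in such values, so levels cannot be compared between genes and the presence of cardiomyocyte markers cannot be read. Where the groups did not overlap, the median lies midway between them, so the innermost DEHP and control values are equal in size by construction. Column medians of the ratios ran from 0.990 to 1.022. The log2 ratios scattered more widely over probe sets in DEHP replicate 6 (SD 0.267) and control replicate 5 (SD 0.369) than in the remaining arrays (SD 0.149 to 0.188). Results that rest on these arrays are also given without them.

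Under DEHP, transcripts of 4 members fell and that of 1 rose. The falls were steep for Xirp2, an actin-binding Xin repeat protein of the Z-disc and intercalated disc, which was 6.33-fold lower, and for Csrp3, the muscle LIM protein, which was 3.18-fold lower. They were shallow for Myoz2, a calcineurin-binding Z-disc protein, at 1.29-fold, and for Ankrd1, the cardiac ankyrin repeat protein, at 1.27-fold. Actn2, the sarcomeric alpha-actinin of heart, was 1.16-fold higher. By limma with Benjamini-Hochberg adjustment over all 27342 probe sets, and an adjusted p under 0.05 as the threshold, 5 of 8 members passed, beside 24.6% of the 14324 genes. For the 4 falls the share of all genes passing in that direction was 10.2%, and for the 1 rise it was 14.4%. Against a minimum fold of 1.2 (limma's treat), Xirp2 and Csrp3 alone passed, beside 3.11% of all genes lower and 2.97% higher. The median log2 fold of the 8 members was −0.32, beside −0.02 over all genes. Log2 folds are DEHP over control, ± SE, with n = 6 arrays per group.

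**Figure D1:**
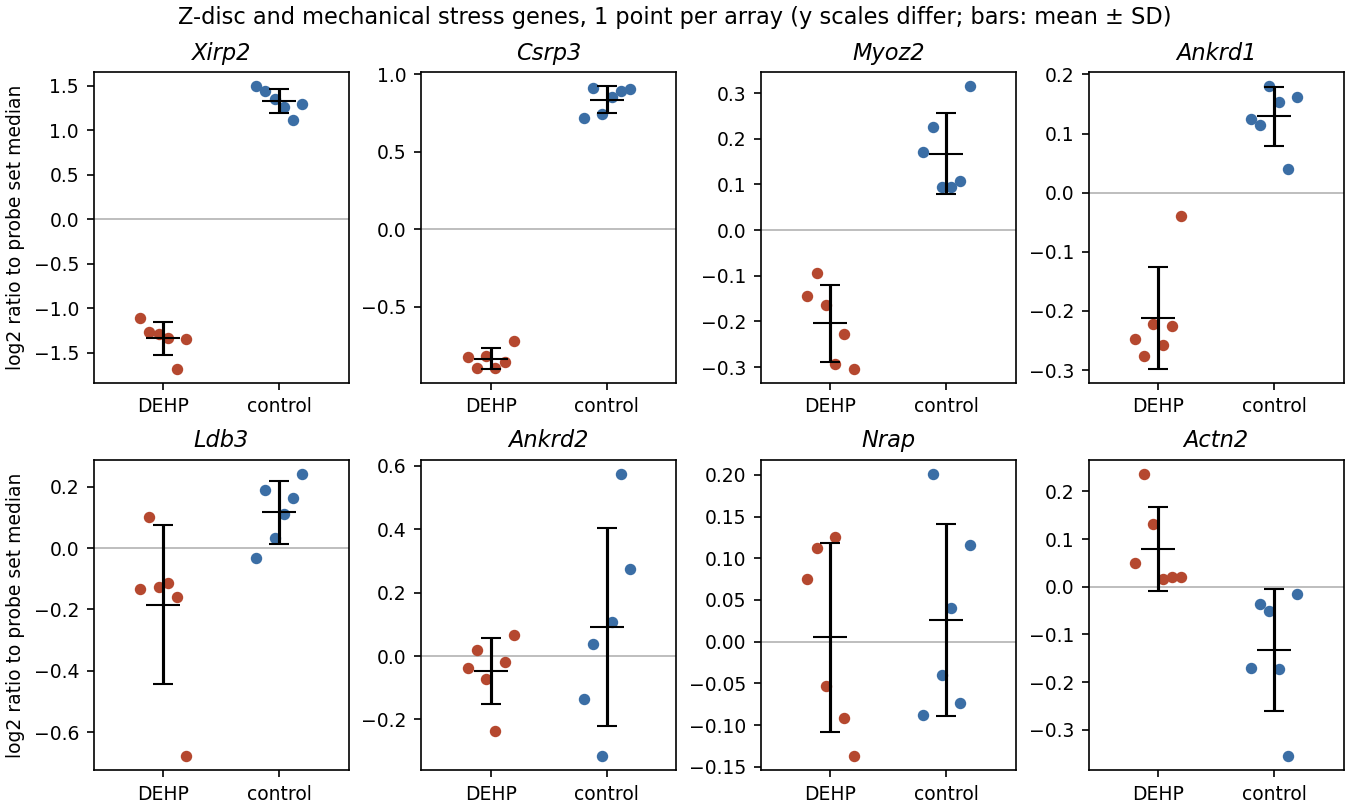
Log2 ratio to the probe set's median for the 8 genes (vertical axis, with its own scale in each panel) in 6 DEHP and 6 control arrays (horizontal axis), 1 point per array, with bars for mean ± SD. Xirp2 and Csrp3 lie far apart between the groups, Ankrd2 and Nrap overlap, and Actn2 is the 1 gene whose DEHP arrays all lie above the control arrays.

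Among the members with promoter sequence in the RefSeq table of assembly GRCr8 (Ankrd2, Myoz2, Xirp2, Ldb3 and Actn2), the 250 bases before the start site were searched on both strands. The motifs were the MEF2 site, the CArG box, CATTCC (the MCAT element bound by TEAD factors) and AGATAA (bound by GATA factors). Xirp2 and Myoz2, which both fell, are printed because each holds a match to the MEF2 site, and Actn2, which rose, because it holds none of the 4 motifs. Ankrd2, which did not pass, holds none either. Csrp3 and Ankrd1, which also fell, had no RefSeq promoter sequence to search, so a link between motif and direction cannot be read. The sequences run 5′ to 3′ along the gene, at chr3:72533936-72534185 on the plus strand for Xirp2, chr2:213852779-213853028 on the minus strand for Myoz2 and chr17:62834805-62835054 on the plus strand for Actn2. Capitals mark the MEF2 match.
Xirp2: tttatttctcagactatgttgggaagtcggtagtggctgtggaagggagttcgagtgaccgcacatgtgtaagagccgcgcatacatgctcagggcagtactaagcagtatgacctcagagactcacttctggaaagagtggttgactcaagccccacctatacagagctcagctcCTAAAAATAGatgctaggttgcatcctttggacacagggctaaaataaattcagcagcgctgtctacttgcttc
Myoz2: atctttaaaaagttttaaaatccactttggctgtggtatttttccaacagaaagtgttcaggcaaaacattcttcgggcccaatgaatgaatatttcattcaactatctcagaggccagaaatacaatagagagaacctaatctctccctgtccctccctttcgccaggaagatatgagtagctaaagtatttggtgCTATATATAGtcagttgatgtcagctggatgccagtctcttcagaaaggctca
Actn2: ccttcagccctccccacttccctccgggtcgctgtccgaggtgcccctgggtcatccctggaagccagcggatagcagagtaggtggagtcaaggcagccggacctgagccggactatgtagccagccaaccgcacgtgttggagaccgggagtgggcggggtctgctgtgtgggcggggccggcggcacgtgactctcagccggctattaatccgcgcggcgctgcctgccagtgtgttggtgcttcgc

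The match lies from base −74 to −65 before the start site in Xirp2 and from −53 to −44 in Myoz2. A MEF2 site occurred in 3.07% of the windows of 27457 genes. The window of Ldb3 held a CArG box, the site of serum response factor, from −52 to −43, as did 1.5% of all windows. Neither CATTCC, present in 11.8% of windows, nor AGATAA, present in 10.0%, was found in the 5 member windows. These matches describe the letters of the windows and are no evidence of binding.

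Xirp2 had the widest separation. Its log2 ratio was −1.68 at the lowest, −1.31 at the median and −1.11 at the highest in DEHP arrays, against 1.11, 1.32 and 1.49 in control arrays. All DEHP values lay below all control values, with DEHP replicate 5 the lowest array and control replicate 1 the highest. The means were −1.34 ± 0.19 in DEHP arrays and 1.33 ± 0.14 in control arrays (SD, n = 6 each), for a log2 fold of −2.66 ± 0.09 (limma adjusted p = 2.00e-09). Only 4 of the 14324 genes had a lower log2 fold.

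Csrp3 encodes a LIM-only protein that binds alpha-actinin and is mutated in some inherited cardiomyopathies. Its log2 ratios were −0.90, −0.84 and −0.72 (lowest, median and highest) in DEHP arrays, against 0.72, 0.87 and 0.91 in control arrays. The arrays of each group lay close together, with means of −0.83 ± 0.07 in DEHP arrays and 0.84 ± 0.09 in control arrays (SD, n = 6 each). The log2 fold was −1.67 ± 0.05 (limma adjusted p = 5.52e-10), rank 26 from the lowest of all genes. Without control replicate 5 and DEHP replicate 6 the log2 folds of Xirp2 and Csrp3 were −2.70 and −1.68.

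Both genes parted the groups, but by unequal amounts. The log2 ratio of Xirp2 minus that of Csrp3 ran from −0.82 to −0.29 in DEHP arrays and from 0.22 to 0.77 in control arrays, so within every array Xirp2 lay further from its median than Csrp3.

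The ankyrin repeat members bind the elastic region of titin and, in the case of Ankrd1, also act in the nucleus as a transcriptional cofactor. Ankrd1 ran from −0.28 through a median of −0.24 to −0.04 in DEHP arrays, against 0.04, 0.14 and 0.18 in control arrays. The groups did not overlap, although DEHP replicate 6 lay well above the other DEHP arrays, which ended at −0.22. Means were −0.21 ± 0.09 in DEHP arrays and 0.13 ± 0.05 in control arrays (SD, n = 6 each), with a log2 fold of −0.34 ± 0.04 (limma adjusted p = 0.000123). Without control replicate 5 and DEHP replicate 6 it was −0.39 ± 0.03.

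Ankrd2, the homologue known chiefly from skeletal muscle, was spread widely. It had −0.24, −0.03 and 0.07 (lowest, median and highest) in DEHP arrays, against −0.32, 0.07 and 0.58 in control arrays. The DEHP values lay inside the control range, whose lowest array was control replicate 3 and highest control replicate 5. The log2 fold of −0.14 ± 0.12 did not pass (limma adjusted p = 0.51), with a 95% interval from −0.40 to 0.13, and it was −0.06 without control replicate 5 and DEHP replicate 6. The fall of Ankrd1 exceeded that of Ankrd2 by 0.20 on the log2 scale, a difference that did not pass a two-sided exact permutation test over arrays (p = 0.21, adjusted p = 0.42 over 2 pairs of members). The smallest p this design allows is 0.00217. Without control replicate 5, where Ankrd2 was highest, the difference was −0.32 and passed (exact permutation adjusted p = 0.022). With any other single array left out it did not pass, and these alternatives were chosen after the data were seen.

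Actn2 rose while Myoz2, which docks on it, fell, and the docking protein Ldb3 did not pass. Actn2 had log2 ratios of 0.02, 0.04 and 0.24 (lowest, median and highest) in DEHP arrays, against −0.35, −0.11 and −0.02 in control arrays. The groups did not overlap, but their edges were only 0.03 apart. Means were 0.08 ± 0.09 in DEHP arrays and −0.13 ± 0.13 in control arrays (SD, n = 6 each), and the log2 fold was 0.21 ± 0.06 (limma adjusted p = 0.031). The call was lost, with an adjusted p of 0.051 to 0.068, when DEHP replicate 1, 2 or 3 or control replicate 1 or 4 was left out. Without control replicate 5 and DEHP replicate 6 the log2 fold was 0.18 (limma adjusted p = 0.030).

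Myoz2, also called calsarcin-1, ties calcineurin to alpha-actinin. It ran from −0.30 through a median of −0.20 to −0.09 in DEHP arrays, against 0.09, 0.14 and 0.31 in control arrays. All DEHP arrays lay below all control arrays, of which control replicate 6 was the highest. Means were −0.20 ± 0.08 in DEHP arrays and 0.17 ± 0.09 in control arrays (SD, n = 6 each), for a log2 fold of −0.37 ± 0.05 (limma adjusted p = 0.000196).

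Ldb3, the PDZ and LIM protein also known as Cypher or ZASP, had −0.68, −0.13 and 0.10 (lowest, median and highest) in DEHP arrays, against −0.03, 0.14 and 0.24 in control arrays. In 5 of 6 DEHP arrays it lay below every control array, while DEHP replicate 2 lay inside the control range and DEHP replicate 6 far below all others. The log2 fold of −0.30 ± 0.11 did not pass (limma adjusted p = 0.068), with a 95% interval from −0.53 to −0.07. Without DEHP replicate 6 it was −0.20 and passed (limma adjusted p = 0.042), without DEHP replicate 2 it was −0.36 and passed (limma adjusted p = 0.030), and without control replicate 5 and DEHP replicate 6 together it was −0.19 (limma adjusted p = 0.053). The log2 folds of Myoz2 and Ldb3 differed by −0.07, which did not pass the exact permutation test (two-sided p = 0.48, adjusted p = 0.48 over 2 pairs). Without DEHP replicate 6 the difference was −0.15 and passed (exact permutation adjusted p = 0.035), but with any other single array left out it did not.

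Nrap, the nebulin-related protein that anchors thin filaments during myofibril assembly, overlapped between the groups. It had −0.14, 0.01 and 0.13 (lowest, median and highest) in DEHP arrays, against −0.09, 0.00 and 0.20 in control arrays. The log2 fold was −0.02 ± 0.06 (limma adjusted p = 0.86), with a 95% interval from −0.16 to 0.12.

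**Figure D2:**
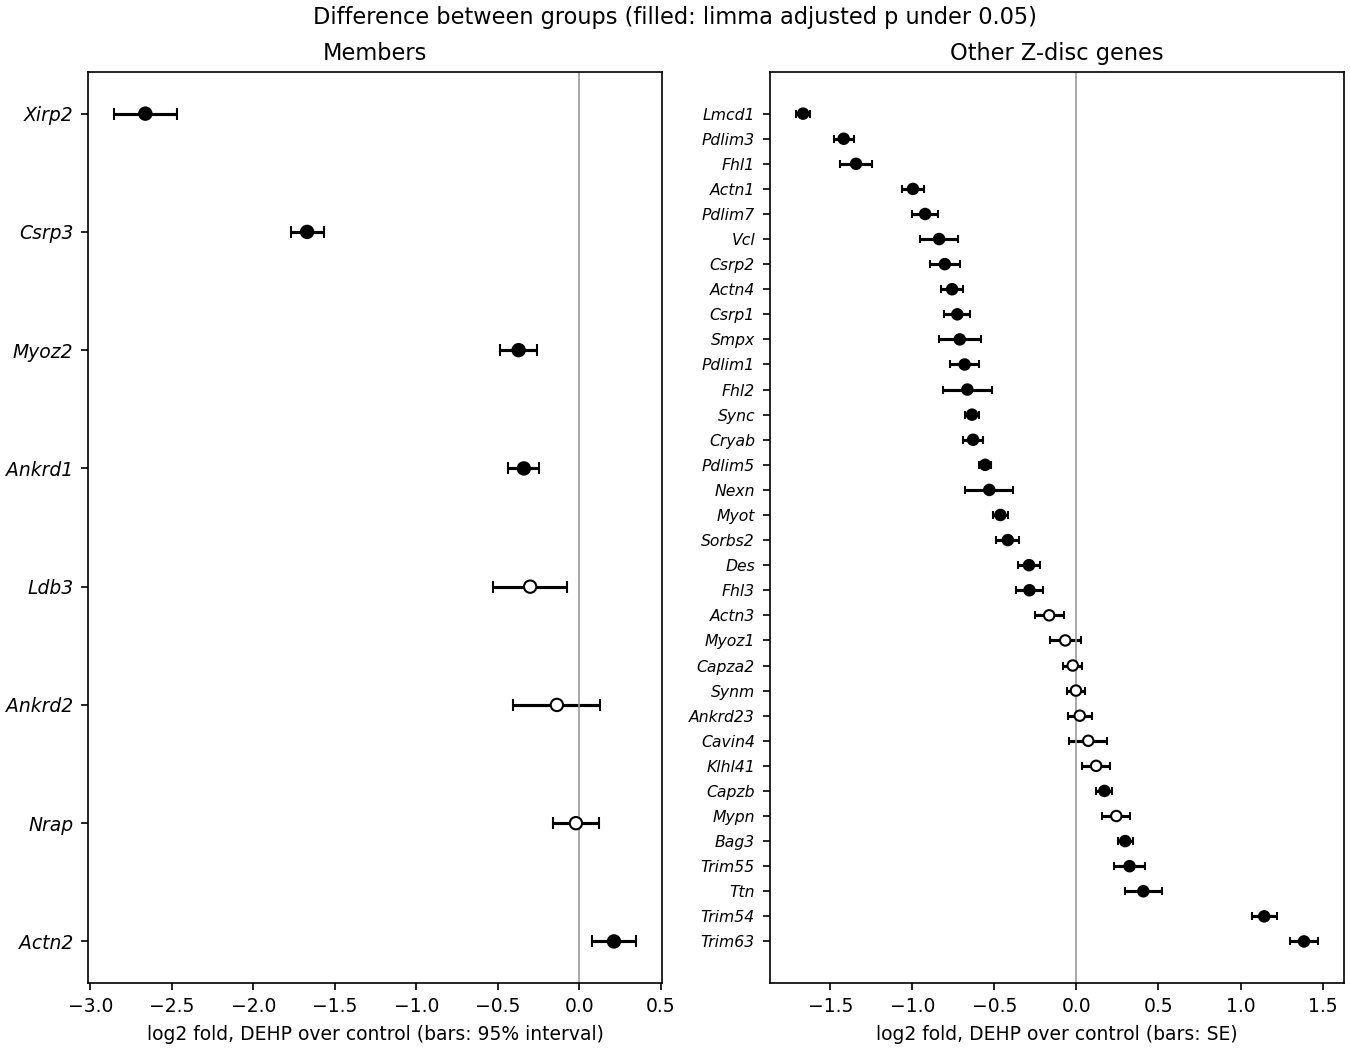
Log2 fold, DEHP over control (horizontal axis), for the 8 members with 95% intervals (left) and for 34 other Z-disc genes with SE (right), filled where the limma adjusted p was under 0.05. Xirp2 at −2.66 and Csrp3 at −1.67 stand well below the other members, and Trim63 and Trim54 stand highest among the other Z-disc genes.

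The groups did not overlap in 5 of the 8 members. All DEHP arrays were lower for 4 of them, as for 6.88% of all genes, and higher for 1, as for 10.0% of all genes. Arrays did not deviate from their group in the same way for every member. DEHP replicate 6 was the highest DEHP array for 3 members, among them Ankrd1 and Csrp3, and the lowest for 3 others, Nrap, Myoz2 and Ldb3. Control replicate 5 was the lowest control array for 3 members, Ankrd1, Xirp2 and Actn2, and the highest for Ankrd2.

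**Figure D3:**
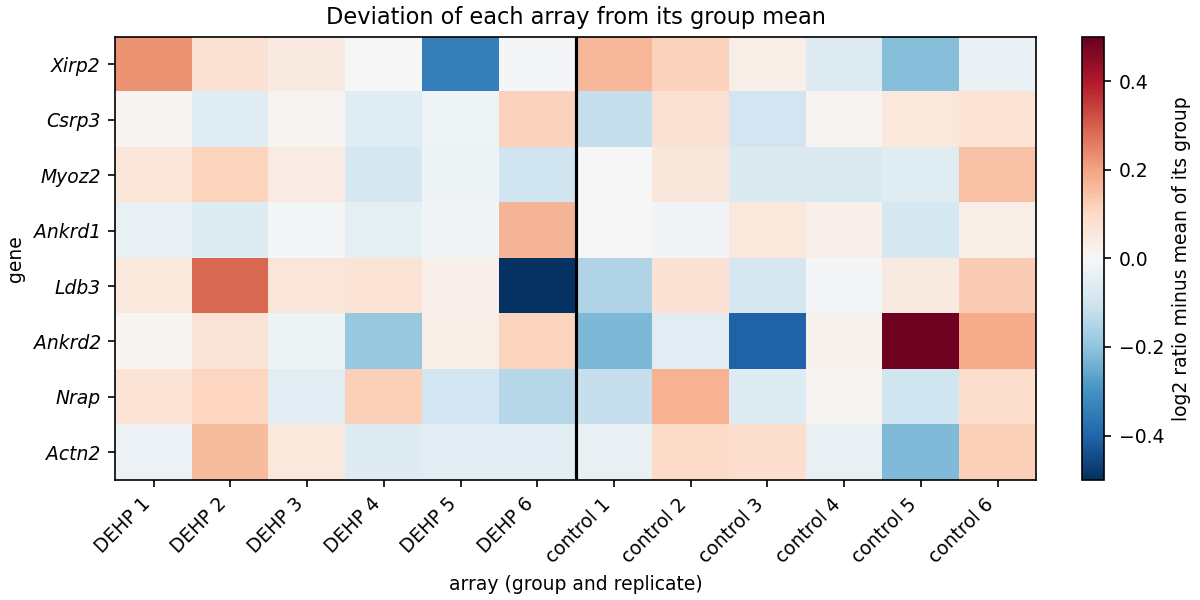
Log2 ratio minus the mean of its group (colour) for each of the 8 genes (rows) in each array (columns, DEHP left of control). The largest deviations are those of Ldb3 in DEHP replicate 6, at −0.49, and Ankrd2 in control replicate 5, at 0.48.

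Other genes listed for the Z-disc fell more often than they rose. The list also holds the non-muscle alpha-actinins Actn1 and Actn4, which both fell, so it does not describe the cardiomyocyte Z-disc alone. Of 44 listed, 34 were measured, and 20 fell, 6 rose and 8 did not pass the limma test, with a median log2 fold of −0.44. The background shares are the 10.2% and 14.4% of all genes given above. The genes with the smallest p were Lmcd1, a LIM protein that restrains GATA factors, Pdlim3, a PDZ and LIM partner of alpha-actinin, and the muscle RING-finger ubiquitin ligases Trim63 (MuRF1) and Trim54 (MuRF3). Lmcd1 averaged −0.85 ± 0.09 in DEHP arrays and 0.82 ± 0.05 in control arrays (SD, n = 6 each), a log2 fold of −1.67 ± 0.04 (limma adjusted p = 5.27e-10) that is close to that of Csrp3.

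Pdlim3 fell by 1.42 ± 0.06 on the log2 scale (limma adjusted p = 1.92e-08). Trim63 averaged 0.66 ± 0.10 in DEHP arrays and −0.73 ± 0.19 in control arrays (SD, n = 6 each), and its log2 fold was 1.39 ± 0.08 (limma adjusted p = 2.29e-07). Trim54 had a log2 fold of 1.14 ± 0.08 (limma adjusted p = 5.09e-07). In both ligase genes every DEHP array lay above every control array. The mean of the whole list lay between −0.30 and −0.11 in DEHP arrays and between 0.06 and 0.20 in control arrays, and was lowest within its group in DEHP replicate 6 and in control replicate 5. Without both arrays 20 of the 34 fell and 4 rose, beside 28.4% of all genes passing in either direction and 12.7% passing lower.

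Genes known to rise when heart muscle is stretched or loaded were also mostly lower. Of 18 listed, 14 were measured, and 10 fell, 2 rose and 2 did not pass the limma test, with a median log2 fold of −0.41, beside 10.2% of all genes lower and 14.4% higher. The natriuretic peptide genes Nppb and Nppa fell by 0.97 ± 0.04 and 0.80 ± 0.04 on the log2 scale (limma adjusted p = 8.39e-09 and 8.44e-08). Edn1, for endothelin-1, and Hbegf, for a growth factor of the EGF family, had the smallest p of this list. Edn1 averaged −1.38 ± 0.17 in DEHP arrays and 1.41 ± 0.14 in control arrays (SD, n = 6 each), a separation near that of Xirp2, and Hbegf averaged −0.77 ± 0.09 in DEHP arrays and 0.76 ± 0.06 in control arrays. The list mean ran from −0.35 to −0.30 in DEHP arrays and from 0.27 to 0.41 in control arrays. The members and all lists, this one included, were chosen with earlier results of these data known. Their direction is thus no independent evidence.

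Transcription factors and cofactors known to act on sarcomere genes in heart were mostly short of the threshold. Of 21 listed, 15 were measured, and 3 fell, 1 rose and 11 did not pass the limma test, with a median log2 fold of −0.06. The share passing in either direction is near the 24.6% of all genes. Myocd, for the serum response factor partner myocardin, fell by 0.39 ± 0.06 on the log2 scale (limma adjusted p = 0.000333), Srf itself by 0.36 ± 0.07 (adjusted p = 0.00323) and Gata4, for a zinc finger factor of heart development, by 0.27 ± 0.06 (adjusted p = 0.00431). Smyd1, for a muscle histone methyltransferase, had a log2 fold of 0.60 ± 0.12 (limma adjusted p = 0.00356). Without control replicate 5 and DEHP replicate 6, 5 of the 15 fell, where 12.7% of all genes passed lower.

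Markers of the cell types in the cultures were read on the same arrays. Beside the marker counts here and in the next paragraph, 10.2% of all genes passed lower, 14.4% higher and 24.6% in either direction. In bulk RNA, fewer cells of a type and less RNA per cell cannot be told apart. Of 8 cardiomyocyte markers, 2 fell, 1 rose and 5 did not pass the limma test, with a median log2 fold of −0.13. The 1 that rose was Ryr2 (log2 fold 1.13), and the 2 that fell were Myl3 (−0.41) and Actc1 (−0.22). The mean of the 8 markers ran from −0.38 to 0.16 in DEHP arrays and from −0.13 to 0.10 in control arrays, so the groups overlapped. This mean was lowest in DEHP replicate 6. It includes the large rise of Ryr2, so the overlap does not show that the other markers were unchanged. Of 8 listed smooth muscle and myofibroblast markers, 7 were measured and all 7 fell. Their mean lay between −1.34 and −0.69 in DEHP arrays and between 0.70 and 0.87 in control arrays. Xirp2, Csrp3, Lmcd1 and Pdlim3 were also lower under DEHP. Within the DEHP group the marker mean was lowest in DEHP replicate 6, where Csrp3 was highest, while Xirp2 was lowest in DEHP replicate 5. DEHP replicate 6 is a single array with wide scatter over probe sets (SD 0.267). Csrp3 lay only 0.115 above its group mean there, beside a log2 fold of −1.67. The part of these markers in the results for those genes was not tested.

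Fibroblast markers went both ways, with 5 of 8 lower and 3 higher, and a list mean from −0.28 to 0.03 in DEHP arrays and from −0.06 to 0.08 in control arrays. Of 5 endothelial markers measured, 3 rose and 2 did not pass, and their list mean ran from −0.23 to 0.50 in DEHP arrays and from −0.34 to 0.01 in control arrays. Of 8 leukocyte markers, 2 fell, 2 rose and 4 did not pass, with list means from −0.08 to 0.10 in DEHP arrays and from −0.25 to 0.10 in control arrays. Of 7 skeletal muscle markers measured, 2 fell and 5 did not pass, with list means from −0.21 to 0.04 in DEHP arrays and from −0.01 to 0.23 in control arrays. Ratios hold no level, so which of these markers are near background is not known.

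**Figure D4:**
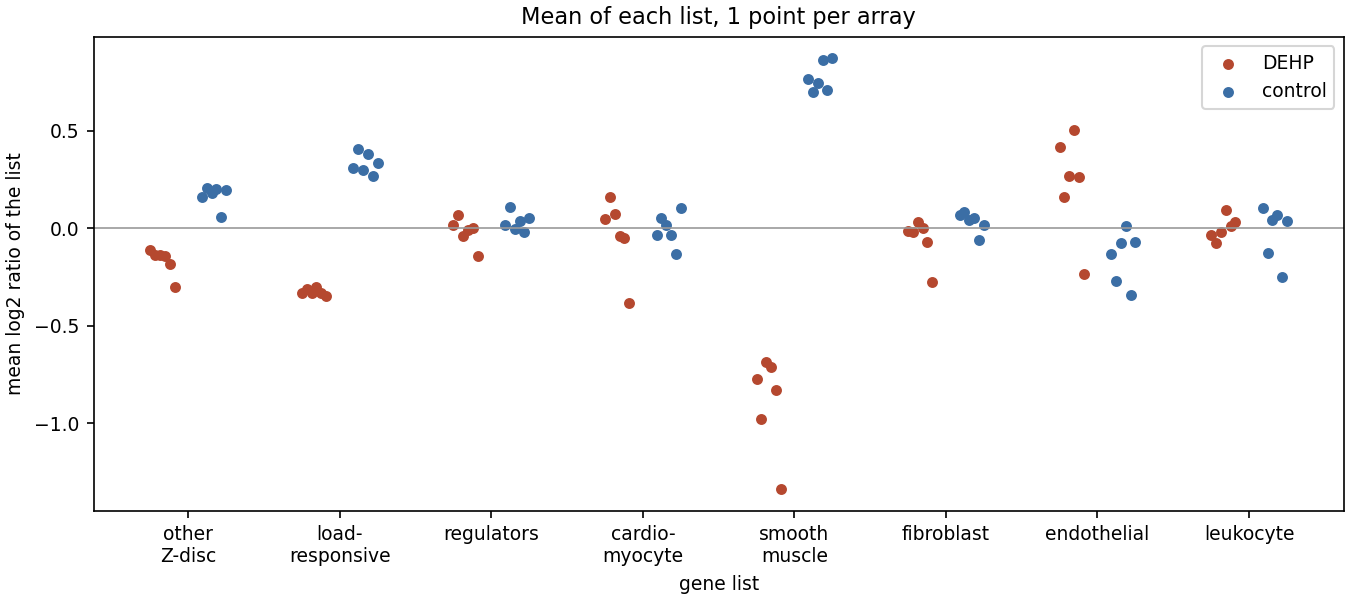
Mean log2 ratio of each gene list (vertical axis) in every array, 6 DEHP points left of 6 control points for each list. The other Z-disc, load-responsive and smooth muscle lists have DEHP arrays that all lie below the control arrays, while the regulator, cardiomyocyte, fibroblast, endothelial and leukocyte lists overlap.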

How the data were processed

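The authors ran RMA (version not given in the sources used here), per the submitters' processing notes. They deposited linear ratios, whose log2 had a median over the 12 arrays within 5.0e-07 of 0 for every probe set. These ratios were taken to log2 and not normalized again. Of 27342 probe sets, 15097 had 1 gene symbol in the platform annotation, 323 had several and 11922 had none; 499 genes with several probe sets took the lowest-numbered one. Entrez identifiers were matched to a RefSeq table for 15067 probe sets, which changed 0 symbols.

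Groups were compared with limma 3.58.1 in R 4.3.3 (lmFit, eBayes, two-sided, Benjamini-Hochberg over all probe sets). In a simulation on all 27342 probe sets, 200 of them changed, the test recovered 82% at a log2 fold of 0.5 and 97% at 1, with 8 false among 187 calls. The simulated noise was independent between arrays and probe sets and equally wide in every array. The real arrays differ in both respects, so these rates need not hold for them. Exact permutation tests over 924 splits compared 2 of 4 planned pairs of members, since Xirp1 and Tcap had no probe set. All members were named, and the 4 genes of smallest p in each of the other Z-disc, load-responsive and regulator lists. Further genes of the Z-disc list and of the cardiomyocyte markers were named after their values were seen. Members and lists were chosen with earlier results of these data known. Alternatives were other scalings, array weights, robust eBayes, a replicate block, stricter thresholds, other probe set rules and arrays left out. The number of arrays limits the precision. Plots used matplotlib 3.10.9.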

Additional observations from a re-analysis of the deposited data

Results flagged for a closer look

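In 40 groups of 6 arrays (8 members and 12 other named genes, each in DEHP and in control), 3 held an array far from the rest, by Dixon's 95% critical value for the gap to the nearest array over the whole range. Chance flags about 1 in 20 groups. In DEHP replicate 6 Ankrd1 stood at −0.040, with the remaining 5 DEHP values between −0.276 and −0.222. The same array held Ldb3 at −0.678, with the remaining DEHP values between −0.159 and 0.103. In control replicate 5 Smyd1 stood at −0.378, with the remaining control values between −0.132 and 0.000.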

How the results depend on the processing

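Xirp2 (log2 fold −2.72 to −2.59) and Csrp3 (−1.73 to −1.65) kept direction and call under all 22 alternatives. Against a minimum fold of 1.2, 2 members fell and none rose, and Ankrd1 (−0.34, adjusted p = 0.68), Myoz2 (−0.37, adjusted p = 0.40) and Actn2 (0.21, adjusted p = 1.0) lost their calls. There 2 other Z-disc genes rose, 0 load-responsive genes rose, 0 regulators fell and 0 rose, and 870 genes passed in place of 3527. At an adjusted p under 0.01, where 2339 genes passed, Actn2 (0.21) lost its call, so 0 members rose, and 3 other Z-disc genes rose. The call of Ldb3 was gained with quantile normalization (−0.28, limma adjusted p = 0.025) and array weights (−0.26, adjusted p = 0.019), where 4216 and 5036 genes passed in place of 3527. It was also gained with the mean of probe sets (−0.30, adjusted p = 0.048) and probe sets with 1 symbol alone (−0.30, adjusted p = 0.049), where fewer features were tested. Falling regulators numbered 5 with quantile normalization, with array weights, and with control replicate 5 and DEHP replicate 6 left out. In these settings 1728, 2182 and 1825 of all genes fell, in place of 1460. The causes of these and other changes were not tested.

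With each array left out in turn, 4 to 5 members fell and 0 to 1 rose, 3 to 5 regulators fell and 1 to 2 rose. Nrap ran from −0.045 to 0.014 (above 0 without DEHP replicate 6, at 0.0075, and without control replicate 2), Ldb3 from −0.36 to −0.20 and Actn2 from 0.17 to 0.24. For the differences between members, alternatives were chosen after seeing the data. With each array left out in turn, Ankrd1 minus Ankrd2 ran from −0.32 to −0.11 and Myoz2 minus Ldb3 from −0.15 to −0.035. With control replicate 5 and DEHP replicate 6 left out together they were −0.33 and −0.17, and both passed (exact permutation adjusted p = 0.016). Replicate numbers are shared between groups. Same-numbered arrays correlated from 0.072 to 0.772 in their deviations, with 5 of 6 pairs over 0.1, and arrays of unlike number from −0.698 to 0.546. Of the arrays, 2 of 6 DEHP and 3 of 6 control arrays correlated best with their own number. These values do not settle whether the arrays were paired, and the main test did not pair them. With a replicate block 4 members fell and 1 rose, and 4352 genes passed in place of 3527.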

Other observations

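The 34 other Z-disc genes were parted by family after their values were seen, a split that was not tested. The 10 LIM proteins of that list all fell (Csrp1, Csrp2, Fhl1, Fhl2, Fhl3, Lmcd1, Pdlim1, Pdlim3, Pdlim5 and Pdlim7). Their log2 folds ran from −1.67 to −0.29, where 10.2% of all genes passed lower. All 7 smooth muscle and myofibroblast markers measured also fell (median log2 fold −1.59). Bulk RNA does not show which cells the LIM transcripts came from, and the part of cell types in these falls was not tested. Among the members the LIM protein Csrp3 fell too. Ldb3 and Nrap, which also hold LIM domains, did not pass (limma adjusted p = 0.068 and 0.86). The 3 muscle RING-finger ligases Trim63, Trim54 and Trim55 rose, with log2 folds from 0.32 to 1.39, where 14.4% of all genes passed higher. Of 3 alpha-actinins other than Actn2, the non-muscle forms Actn1 (−0.996 ± 0.068) and Actn4 (−0.76 ± 0.07) fell, while Actn3, the skeletal form, did not pass (−0.17 ± 0.09, limma adjusted p = 0.24). Actn2 was thus the 1 alpha-actinin gene that rose. Its call (limma adjusted p = 0.031) was lost at an adjusted p under 0.01, against a minimum fold of 1.2 and with some single arrays left out. Titin, Ttn, which spans from the Z-disc to the M-band, rose (0.41 ± 0.11, limma adjusted p = 0.023). Its DEHP values ran from 0.06 to 0.68 and its control values from −0.46 to −0.06. Of the 13 genes of the list placed in no family, 5 fell, 3 rose, Ttn among them, and 5 did not pass.

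The members also differed in how widely replicates scattered. The pooled within-group SD was 0.0704 for Ankrd1 and 0.0761 for Csrp3, smaller than the median of 0.126 over all genes, while Ankrd2 had 0.233 and Ldb3 0.198, larger than in 89.7% and 81.4% of genes.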
